A study of Mus musculus with 7 samples.

Results

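Integrins are adhesion receptors built from an alpha and a beta subunit that together bind matrix proteins or ligands on other cells. Inside the cell, talins and kindlins bind the beta tail and switch the receptor on, and adaptors and kinases gather there to form the focal adhesion, which ties the receptor to actin. In melanoma cells and in endothelial cells, integrins are known for adhesion to matrix, migration and survival. The genes described here are 38 mouse genes chosen by symbol, made up of 17 alpha subunits, 8 beta subunits and 13 core genes of the focal adhesion, out of 19938 genes measured. Of these, 37 had a probe set of their own, 1 probe set each, and all 37 were tested, since no filter on low values was used. The kinase gene Ptk2 was not analysed here.

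The data are 7 Affymetrix Mouse Gene 1.0 ST arrays, which read RNA levels gene by gene, with 1 array for each sample. The PECAM1+ samples were clones A2, A3, A4 and A5 of B16F10, a pigmented mouse melanoma line (n = 4), the PECAM1- samples were clone A1 and the parental B16F10 cells (n = 2), and mouse dermal endothelial cells (MDEC) made up the remaining sample (n = 1). B16F10 cells and clones grew in DMEM with serum, and MDEC in DMEM with an endothelial supplement, so cell type and medium cannot be told apart between MDEC and B16F10. No sample was treated, and all were lifted with Accutase before RNA was taken. The labels do not say how PECAM1+ cells arose, whether the clones are of independent origin or whether the arrays of a group stand for separate cultures. The p-values therefore speak only to the scatter of these samples, and that scatter may be technical.

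The labels were checked against marker genes. Pecam1 averaged 11.03 ± 0.03 (SD, n = 4) in the PECAM1+ clones, against 5.43 in clone A1 and 5.27 in parental cells, all as log2 values. Of 10 endothelial markers, 8 were at least 4-fold higher in MDEC than in B16F10. The largest difference was that of Cdh5 (VE-cadherin), at 12.41 in MDEC and between 4.86 and 5.08 in the 6 B16F10 arrays. Cldn5 was 1.77 higher, under 4-fold. Vwf went the other way, at 6.41 in MDEC, below the 6.55 to 7.05 of B16F10. All 8 melanocyte markers were at least 4-fold lower in MDEC. Clone A1 stood apart from the other B16F10 arrays, since the PECAM1+ clones differed from it by 2-fold or more in 1310 genes (6.57%), and from parental cells in 131 (0.657%). Members called against clone A1 are therefore given beside parental cells as well. In bulk samples such as these, fewer cells expressing a gene and less RNA per cell cannot be told apart.

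Across all 7 arrays, several members kept a nearly constant value. The beta1 gene Itgb1, whose product pairs with most of the alpha subunits listed here, was at 10.58, 10.79, 10.50 and 10.73 in clones A2 to A5, against 10.75 in clone A1 and 10.74 in parental cells. MDEC held 10.93, so the whole span was under 2-fold. Itgav, the alpha subunit that pairs with beta1, beta3, beta5, beta6 and beta8, was at 9.60, 9.86, 9.54 and 9.72 in the PECAM1+ clones, against 9.27 in clone A1 and 9.60 in parental cells, and at 9.71 in MDEC, inside the B16F10 range. Fermt2, which encodes kindlin-2, the kindlin of most adherent cells, lay between 10.00 and 10.28 on every array.

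A set of 10 members lay below the array median, which was 6.12 to 6.18, on every array. These were Itga2, Itga7, Itga11, Itgae, Itgam, Itgax, Itgb2, Itgb6, Itgb7 and Fermt1 (kindlin-1, the kindlin of epithelia). The leukocyte gene Itgb2, the shared beta subunit of Itgal, Itgam and Itgax, was at 5.43 to 5.58 in the PECAM1+ clones and at 5.44 in clone A1, parental cells and MDEC alike. Other members lay below the median on part of the arrays only. Itga8 was at 5.06 to 5.69 in B16F10 and 7.41 in MDEC, and Itga3 at 5.67 to 6.87 and 10.53. The files give no detection calls, so whether such low values lie above background is not known. Of the 37 members, 14 had an identical value on at least a pair of arrays, as did 54.0% of all genes, which can make the spread of a gene too small.

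**Figure D1:**
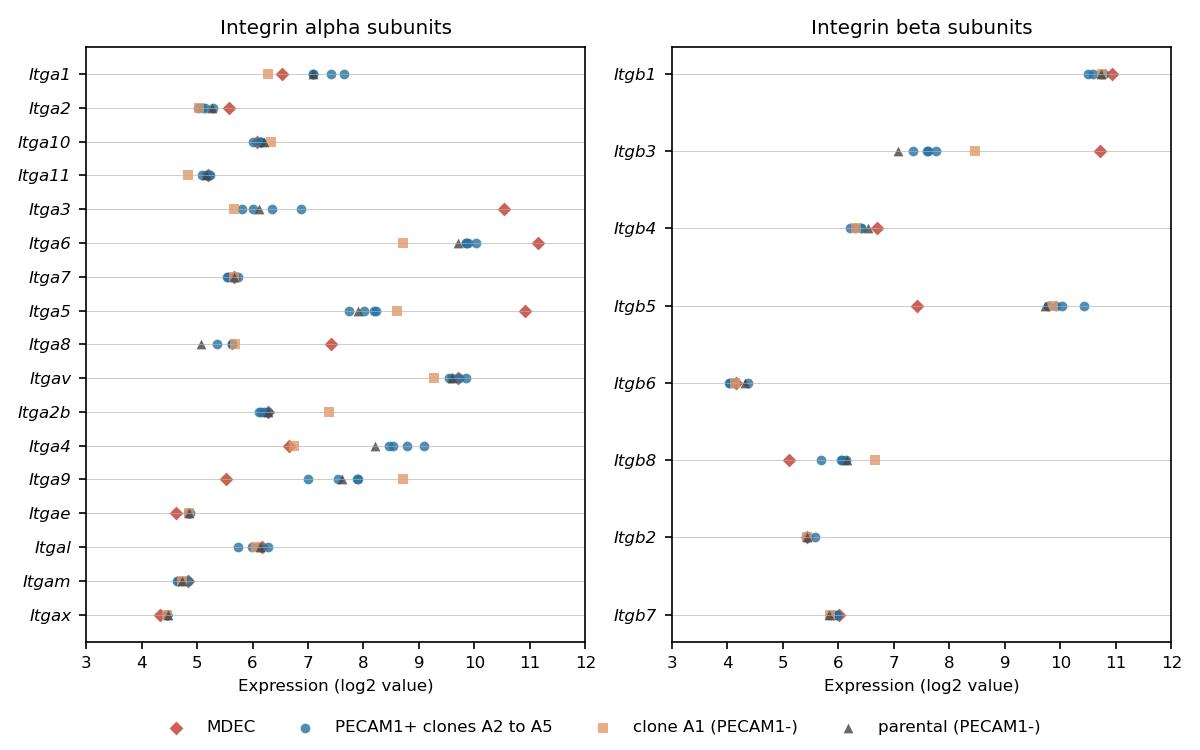
Expression of the 17 alpha and 8 beta integrin subunits as log2 values (horizontal axis) on each array, with MDEC as diamonds, the 4 PECAM1+ clones as circles, clone A1 as squares and parental cells as triangles. Itgb1 and Itgav lie close together on all arrays, while Itga3, Itga5 and Itgb3 are far to the right in MDEC and Itgb5 and Itga9 far to the left.

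The first comparison asked whether adhesion genes differed with PECAM1 status. Set against both PECAM1- samples, the PECAM1+ clones had no integrin or focal adhesion gene past the threshold. Limma, fitted over all genes with Benjamini-Hochberg adjustment and a threshold of 0.05, called 0 of the 37 members and 2 of 19938 genes (0.0100%), and 4 members had an unadjusted p under 0.05, as did 9.18% of all genes. The lowest limma adjusted p of a member was 0.487, for Itga4, whose difference was 1.24 ± 0.43 (SE). The groups did not overlap for 6 members (16.2%), where they did not for 16.4% of all genes. The PECAM1+ clones lay above both PECAM1- samples for Itga4, Itga6, Itgb7 and Pxn (paxillin, an adaptor that binds the alpha4 tail), and below both for Itga10 and Itgb8. The median difference of the 37 members was -0.02, beside 0.00 for all genes.

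Pxn was at 9.39, 9.55, 9.39 and 9.30 in clones A2 to A5, against 9.09 in clone A1 and 9.18 in parental cells, which gives 0.27 ± 0.10 (SE, limma adjusted p = 0.505). Without clone A1 the difference was 0.23, and without parental cells 0.32. The groups of Pxn are separate, but the test did not pass.

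Set against clone A1 alone, the PECAM1+ clones differed in 7 of the 37 members (18.9%), 5 higher and 2 lower. This is no larger a share than that of all genes, of which limma called 20.5% in the same fit, so the count is not particular to adhesion genes. At an unadjusted p under 0.05 the counts were 12 members and 34.2% of all genes. Clone A1 is 1 array and was assumed to vary like the clones. It lay outside the range of the clones for 20 members (54.1%), and for 59.9% of all genes. The 5 higher members were the alpha subunit genes Itga4, Itga6 and Itga11, the talin gene Tln2 and Parva (alpha-parvin, which joins integrin-linked kinase to actin), and the 2 lower were Itga2b and Itgb3. No member passed against parental cells.

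Itga4 encodes the alpha4 subunit, a receptor for fibronectin and VCAM1 that pairs with beta1 or beta7. Its log2 level was 8.45, 8.52, 9.09 and 8.79 in clones A2, A3, A4 and A5, against 6.75 in clone A1. Parental cells held 8.20, below all 4 clones but far nearer to them than clone A1 was. The clones lay 1.97 ± 0.28 (SE) above clone A1 (limma adjusted p = 0.0198) and 0.51 ± 0.28 above parental cells (limma adjusted p = 0.591). The call against clone A1 was lost without clone A3 (limma adjusted p = 0.0624) or clone A5 (0.0783), while the difference stayed between 1.84 and 2.06.

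Itga9, whose product is the closest relative of alpha4 and binds tenascin and VCAM1, went the other way in clone A1 without passing. It was at 7.90, 6.99, 7.89 and 7.55 in clones A2 to A5, against 8.71 in clone A1 and 7.60 in parental cells. Its difference from clone A1 was -1.13 ± 0.41 (SE), with a limma adjusted p of 0.150, and clone A3 was the low value among the PECAM1+ clones.

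Among laminin receptors, Itga6 encodes the alpha6 subunit, which pairs with beta1 or beta4. It was at 9.86, 10.03, 9.85 and 9.89 in clones A2 to A5, against 8.70 in clone A1 and 9.71 in parental cells. Clone A1 was low and the other B16F10 arrays were close together. The clones were 1.20 ± 0.09 (SE) higher than clone A1 (limma adjusted p = 0.00597), a call that held with every clone left out in turn, and 0.20 ± 0.09 above parental cells (limma adjusted p = 0.488). Itgb4, the other partner of alpha6 and a gene of hemidesmosomes, was at 6.21 to 6.41 in the PECAM1+ clones, against 6.33 in clone A1 and 6.54 in parental cells. Itga3 was at 5.82 to 6.87 in the clones, against 5.67 in clone A1 and 6.11 in parental cells, and the difference of Itga7 was -0.04 from either.

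The 2 members that were lower in the PECAM1+ clones than in clone A1 encode the subunits of the platelet fibrinogen receptor. Itga2b was at 6.12, 6.21, 6.15 and 6.28 in clones A2 to A5, against 7.38 in clone A1 and 6.28 in parental cells. It fell by 1.19 ± 0.07 (SE) relative to clone A1 (limma adjusted p = 0.00410), and its difference from parental cells was -0.09 ± 0.07. Clone A1 is thus the single high array for Itga2b, above MDEC as well.

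Itgb3, the partner of both Itga2b and Itgav, was at 7.34, 7.61, 7.75 and 7.59 in clones A2 to A5, against 8.46 in clone A1 and 7.07 in parental cells. The clones lay between the PECAM1- samples, with a difference of -0.89 ± 0.17 (SE) from clone A1 (limma adjusted p = 0.0357) and of 0.50 ± 0.17 from parental cells (limma adjusted p = 0.332). The call against clone A1 was lost without clone A3 (limma adjusted p = 0.103), A4 (0.0518) or A5 (0.111). Of 6 platelet markers measured, 1 rose (Pf4, by 0.36) and 1 fell (Gp5, by 0.29) in the clones relative to clone A1. The mean of the 6 was 4.96 to 5.09 in the PECAM1+ clones, 4.98 in clone A1 and 5.01 in parental cells, and all 6 were below the median gene of clone A1.

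The remaining fibronectin, vitronectin and collagen receptor genes gave smaller differences. Itga5, the fibronectin receptor alpha subunit, was at 7.74 to 8.23 in the PECAM1+ clones, against 8.59 in clone A1 and 7.91 in parental cells (limma adjusted p = 0.172 against clone A1). Itga1, a collagen and laminin receptor subunit, was at 7.09, 7.65, 7.09 and 7.42 in the clones, against 6.28 in clone A1 and 7.09 in parental cells. Its difference from clone A1, 1.03 ± 0.26 (SE), did not pass (limma adjusted p = 0.0696), but it did with quantile normalization (0.0388) or median centring (0.0378). Itga11, a fibrillar collagen receptor subunit and one of the members below the array medians, passed with a difference of only 0.33 ± 0.06 (SE, limma adjusted p = 0.0377), which was lost without clone A2, A4 or A5, with median centring (0.0514) and with all probe sets tested (0.0545).

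Of the remaining alpha and beta genes, Itga8, Itgav, Itgb5 and Itgb8 ranged from -0.67 (Itgb8) to 0.41 (Itgav) against clone A1 and did not pass. Itgb8, an alpha-v partner that activates TGF-beta, was at 5.69 to 6.15 in the PECAM1+ clones, against 6.66 in clone A1 and 6.16 in parental cells. It passed against clone A1 only with median centring (limma adjusted p = 0.0481) or without clone A4 (0.0282). Itga10 passed only with quantile normalization (0.0406) or without clone A2 (0.0271).

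The starts of Itga4 and Itga2b, the alpha genes with the largest difference from clone A1 in each direction, are shown for reference. Each window runs from 250 bases before to 50 after the annotated start in GRCm38.p6 (RefSeq), at chr2:79255176-79255475 on the plus strand for Itga4 and chr11:102469834-102470133 on the minus strand for Itga2b. Capitals mark GGGCGG, a GC box, or its complement CCGCCC, and CAGCTG, an E-box.
Itga4: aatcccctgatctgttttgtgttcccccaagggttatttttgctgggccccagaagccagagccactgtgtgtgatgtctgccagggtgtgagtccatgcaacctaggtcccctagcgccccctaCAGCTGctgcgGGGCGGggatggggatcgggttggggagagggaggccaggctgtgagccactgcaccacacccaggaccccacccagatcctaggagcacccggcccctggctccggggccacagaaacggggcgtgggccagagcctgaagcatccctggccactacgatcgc
Itga2b: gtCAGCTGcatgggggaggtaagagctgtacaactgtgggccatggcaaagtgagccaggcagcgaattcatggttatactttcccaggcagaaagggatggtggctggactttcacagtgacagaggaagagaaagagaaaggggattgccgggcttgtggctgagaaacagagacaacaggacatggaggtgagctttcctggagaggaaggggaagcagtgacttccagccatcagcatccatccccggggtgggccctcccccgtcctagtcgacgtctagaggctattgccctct

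Both windows hold CAGCTG once, which is present in 16.3% of all 32851 promoter windows of this length and in 8 of the 33 windows of members. GGGCGG, searched on both strands, is present once in Itga4 and not in Itga2b, beside 35.7% of all windows and 17 of the 33 windows of members. TATAAA, also searched on both strands, is in neither of these windows. The motifs do not overlap each other in these windows. They were chosen after the windows had been read, and 27 of the 38 members had a window.

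Among focal adhesion genes, Tln2 and Parva were the members called against clone A1. Tln2 encodes talin-2, a second talin beside the more general talin-1. It was at 8.23, 8.51, 8.04 and 8.34 in clones A2 to A5, against 6.70 in clone A1 and 8.04 in parental cells, so that clone A1 alone was low. The clones were 1.58 ± 0.20 (SE) higher than clone A1 (limma adjusted p = 0.0147, lost without clone A2 at 0.0532 or A5 at 0.0640) and 0.24 ± 0.20 above parental cells (limma adjusted p = 0.792). Tln1, the talin-1 gene, was at 9.64, 9.69, 9.41 and 9.54 in the clones, against 9.57 in clone A1 and 9.83 in parental cells, and did not pass in any comparison.

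Parva was at 10.41, 10.43, 10.30 and 10.23 in clones A2 to A5, against 9.56 in clone A1 and 10.42 in parental cells. The clones were 0.78 ± 0.10 (SE) higher than clone A1 (limma adjusted p = 0.0164), and their difference from parental cells was -0.08 ± 0.10. The call against clone A1 was lost by a small margin without clone A2 (0.0503) or A3 (0.0506). The other genes of the same complex did not pass. Ilk, which encodes integrin-linked kinase, was at 10.02 to 10.32 in the clones and at 10.14 in both PECAM1- samples. Lims1 (PINCH-1) was at 10.19 to 10.66 in the clones, against 10.17 in clone A1 and 10.49 in parental cells.

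The actin-linked adaptors did not pass either. Zyx (zyxin, found at adhesions under tension) was at 9.47, 9.88, 9.22 and 9.62 in clones A2 to A5, against 10.21 in clone A1 and 9.62 in parental cells, a difference from clone A1 of -0.66 ± 0.27 (SE, limma adjusted p = 0.181). Vcl (vinculin) was at 8.63 to 9.15 in the clones, against 9.07 in clone A1 and 9.04 in parental cells. Bcar1 (p130Cas, a scaffold phosphorylated on stretch) was at 8.29 to 8.99, against 8.67 in clone A1 and 9.02 in parental cells.

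**Figure D2:**
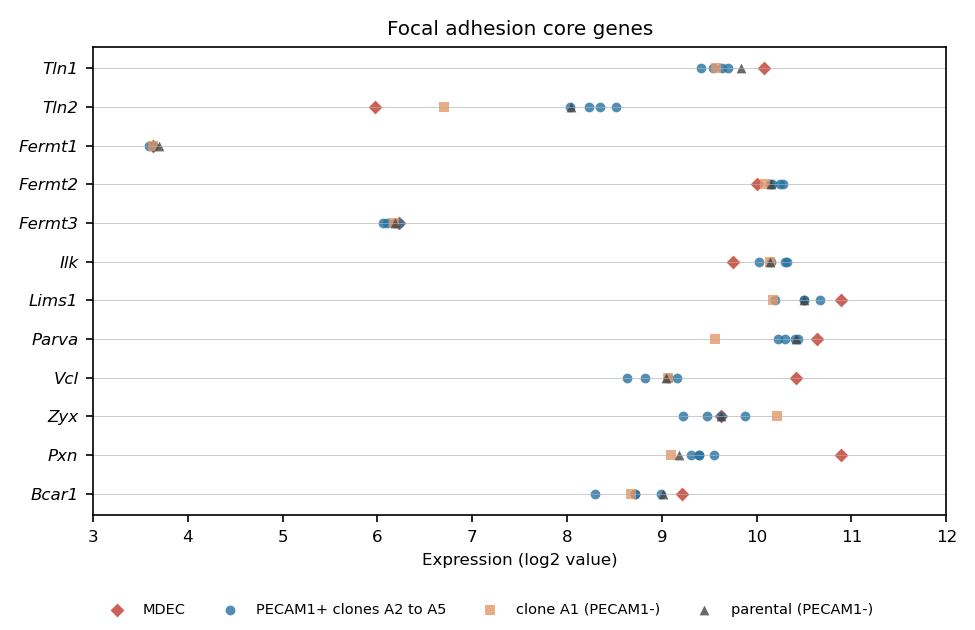
Expression of the 12 focal adhesion core genes with a probe set, as log2 values (horizontal axis) on each array, with MDEC as diamonds, the 4 PECAM1+ clones as circles, clone A1 as squares and parental cells as triangles. Clone A1 lies to the left of the other B16F10 arrays for Tln2 (6.70) and Parva (9.56), and MDEC lies to the right of all B16F10 arrays for Pxn (10.89) and Vcl (10.42).

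Against parental cells alone, limma called 0 of the 37 members, where it called 2 of 19938 genes (0.0100%). Only Itga8 and Itgb3 had an unadjusted p under 0.05, as did 13.5% of all genes. Itga8, an alpha subunit that pairs with beta1, was at 5.35 in clone A2 and 5.64 in clones A3, A4 and A5, against 5.06 in parental cells, a limma difference of 0.50 ± 0.14 (SE, adjusted p = 0.276). Clone A1 was at 5.69. Itga11, which passed against clone A1, was at 5.09 to 5.24 in the clones, against 5.16 in parental cells and 4.84 in clone A1. Its difference from parental cells was 0.01 ± 0.06 (SE). Parental cells lay outside the range of the clones for 14 members (37.8%), and for 42.7% of all genes. Differences of the 37 members from parental cells ran from -0.34 to 0.51 with a median of -0.02, and from clone A1 from -1.19 to 1.97 with a median of 0.00. The comparisons share the 4 PECAM1+ clones.

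**Figure D3:**
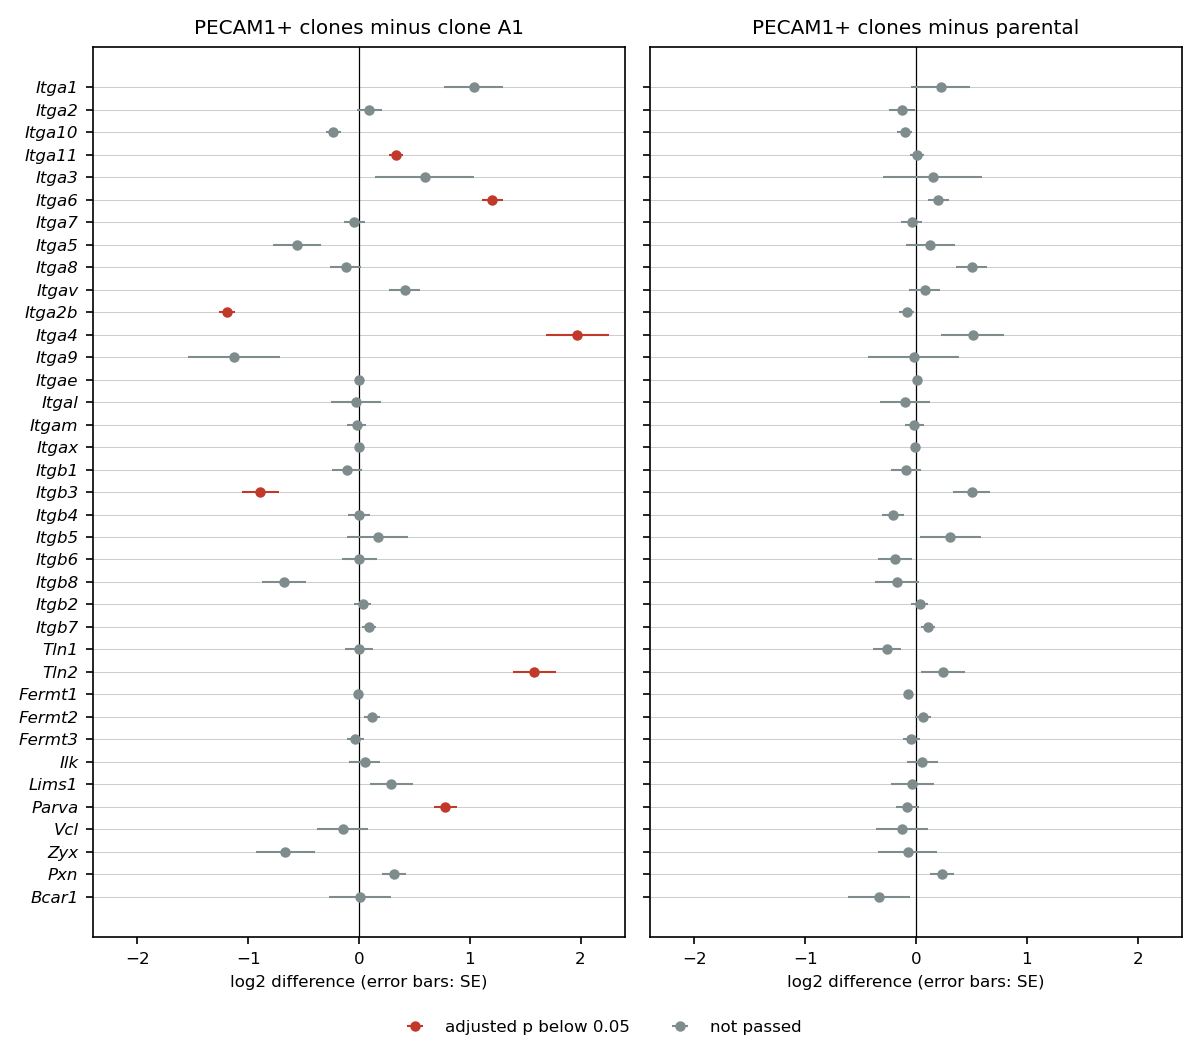
Differences of the PECAM1+ clones (mean of 4) from clone A1 (left) and from parental cells (right) for the 37 members in log2 units, with bars of 1 SE. Red points passed the limma test, 7 against clone A1 and 0 against parental cells, and the widest differences, for Itga4, Tln2, Itga6 and Itga2b, are on the left.

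Among the PECAM1+ clones themselves, Itga3 varied most, at 5.82, 6.87, 6.01 and 6.35 in clones A2 to A5, a range of 1.05, followed by Itga9 with a range of 0.91. Bcar1, Itgb5, Zyx and Itga4 had ranges of 0.69, 0.66, 0.65 and 0.64. Clone A3 was the highest of the 4 clones for 17 of the 37 members (45.9%), where it was highest for 20.7% of all genes, and it led Itga1, Itga3, Itga6, Itgav, Itgb1, Itgb5 and 8 of the 12 core genes. With quantile normalization it was the highest for 16 (43.2%, and 20.5% of all genes). Clone A4 was the lowest for 18 members (48.6%, and 30.0% of all genes), 9 of them core genes. Among genes above the array medians on all arrays, clone A4 was lowest for 45.7%, and for 11 of the 16 such members (68.8%). With quantile normalization it was lowest for 30.9% of such genes and for 8 of the 16 members. With 1 array for each clone, these ranks were not tested, and they were singled out after the values had been seen.

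MDEC were set against B16F10 to ask how an endothelial cell differs from the melanoma line in the same genes. MDEC had more Itga3, Itgb3 and Itga5 and less Itgb5 and Itga9. The single MDEC array was not tested, and genes were picked by size, where MDEC lay beyond all 6 B16F10 arrays and 4-fold or more away from B16F10, taken as the average of its PECAM1+ and PECAM1- means. This rule took in 5 of the 37 members (13.5%), 3 higher and 2 lower, beside 943 of 19938 genes (4.73%), 543 higher and 400 lower. MDEC lay outside the B16F10 range for 26 members (70.3%), and for 52.9% of all genes. The 5 members are all integrin subunits, and none of the 12 core genes reached the rule with all B16F10 arrays, though Tln2 did without clone A1.

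Itga3, the alpha3 subunit of a laminin receptor, was at 10.53 in MDEC, against 5.67 to 6.87 in the 6 B16F10 arrays. That is 4.45 log2 units, or 21.9-fold. Itga6, the other main laminin receptor alpha gene, was at 11.15 in MDEC, against 8.70 to 10.03 in B16F10, a difference of 1.59 that was under the 4-fold rule. Both lay above every B16F10 array. Itga7 was at 5.67 in MDEC, within the B16F10 range.

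The alpha-v partners changed in opposite directions. Itgb3, whose product with alpha-v is a receptor for vitronectin and fibronectin found on growing vessels, was at 10.71 in MDEC, against 7.34 to 7.75 in the PECAM1+ clones, 8.46 in clone A1 and 7.07 in parental cells. That is 3.04 log2 units (8.22-fold) above B16F10. Itgb5, another vitronectin receptor subunit, was at 7.42 in MDEC, against 9.92, 10.43, 9.77 and 10.04 in clones A2 to A5, 9.87 in clone A1 and 9.73 in parental cells, a difference of -2.50 (5.65-fold lower). Itgav itself differed by 0.15, and Itgb8 was at 5.11 in MDEC, against 5.69 to 6.66 in B16F10 (-1.08, under the rule). Itgb6, an epithelial partner of alpha-v, was at 4.15 in MDEC, within the B16F10 range of 4.02 to 4.37.

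Itga5 was at 10.91 in MDEC, against 7.74 to 8.59 in B16F10, a difference of 2.77 (6.81-fold), with its only beta partner Itgb1 0.23 higher. Itga9 was at 5.53 in MDEC, against 6.99 to 8.71 in B16F10 (-2.35, 5.08-fold lower). Clone A1 held the highest of these B16F10 values, and without it the difference was -2.07, only just past the rule. Itga4 was at 6.65 in MDEC, close to the 6.75 of clone A1 and below the 8.20 to 9.09 of the other B16F10 arrays. Its difference of -1.44 was under the rule, and it reached -2.06 when the PECAM1+ clones alone were the comparison. Itga8 was at 7.41 in MDEC, against 5.06 to 5.69 in B16F10, a difference of 1.94 just under the rule, and it passed with quantile normalization (2.02), against parental cells (2.35) or without clone A1 (2.10).

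The starts of Itga5 and Itgb5, fibronectin and vitronectin receptor genes that differed between MDEC and B16F10 in opposite directions, are shown with the same capitals. They lie at chr15:103366742-103367041 on the minus strand and chr16:33829415-33829714 on the plus strand (GRCm38.p6, RefSeq).
Itga5: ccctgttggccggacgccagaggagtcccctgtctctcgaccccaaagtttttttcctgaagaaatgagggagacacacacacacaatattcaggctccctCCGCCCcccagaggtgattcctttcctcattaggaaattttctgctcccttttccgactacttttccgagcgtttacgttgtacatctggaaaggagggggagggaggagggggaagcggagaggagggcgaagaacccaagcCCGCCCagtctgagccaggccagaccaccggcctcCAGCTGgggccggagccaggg
Itgb5: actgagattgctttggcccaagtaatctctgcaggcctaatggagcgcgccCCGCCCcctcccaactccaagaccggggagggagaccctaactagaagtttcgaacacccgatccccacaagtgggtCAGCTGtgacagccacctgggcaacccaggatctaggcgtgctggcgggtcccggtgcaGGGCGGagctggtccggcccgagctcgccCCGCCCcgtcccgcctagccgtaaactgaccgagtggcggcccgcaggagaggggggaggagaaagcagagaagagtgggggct

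The GC box is present 2 times in the Itga5 window and 3 times in that of Itgb5, and CAGCTG once in each. TATAAA is in neither. Both windows thus hold both of the marked motifs.

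No leukocyte integrin gene was past the rule in MDEC. Itgal and Itgb2 differed from B16F10 by 0.10 and -0.02 and lay within its range. Itgam, Itgb7, Itgax and Itgae lay outside that range, with small differences of 0.12, 0.13, -0.14 and -0.23. Of 9 leukocyte markers measured, 1 was past the rule, the macrophage gene Cd68 at 11.18 in MDEC, against 7.52 to 10.07 in B16F10. Lcp2 was just under it, at 7.62 in MDEC against 5.49 to 5.65 in B16F10 (1.99). Cd14 was at 6.37, against 5.06 to 5.28 (1.14). Ptprc (CD45), the defining marker, was at 4.99 in MDEC, within the B16F10 range. Itga2b was at 6.28 in MDEC, as in parental cells. Of the 10 fibroblast and mural markers, Thy1 was past the rule (10.06 in MDEC, against 5.72 to 6.02 in B16F10), and of 6 keratinocyte and 6 platelet markers none was.

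Of the core genes, Pxn was at 10.89 in MDEC, against 9.09 to 9.55 in B16F10 (1.62), and Vcl was at 10.42, against 8.63 to 9.15 (1.43). Tln2 was at 5.98 in MDEC, against 6.70 to 8.51 in B16F10 (-1.85). It was past the 4-fold rule without clone A1 (-2.18), against the PECAM1+ clones alone (-2.30) and against parental cells (-2.06). Tln1 was 0.44 higher in MDEC. The difference of Ilk was -0.42, and Lims1, Parva and Bcar1 were 0.50, 0.47 and 0.45 higher. Zyx and Fermt2 differed by -0.11 and -0.16. Fermt3, the kindlin of blood cells, differed by 0.07.

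**Figure D4:**
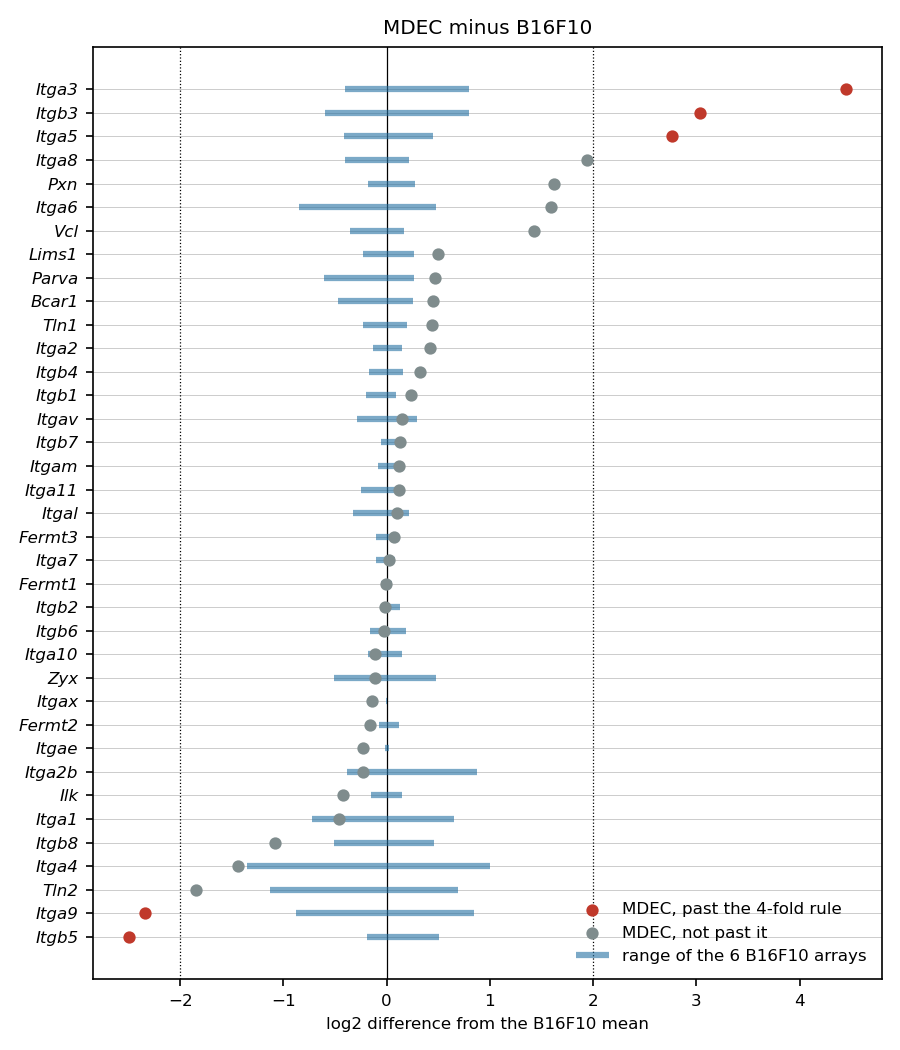
Difference of MDEC from B16F10, taken as the average of its PECAM1+ and PECAM1- means, for the 37 members in log2 units (points), with the range of the 6 B16F10 arrays as blue bars and dotted lines at 4-fold. Red points mark the 5 members past the rule of size, Itga3, Itgb3 and Itga5 on the right and Itga9 and Itgb5 on the left.

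Other genes of the adhesion pathway were counted in 4 lists. Against both PECAM1- samples and against parental cells, limma called 0 genes of any of these lists. Against both PECAM1- samples, 9.18% of all genes had an unadjusted limma p under 0.05. So did 6 of 45 further adhesome genes, 1 of 10 surface partners, 3 of 29 matrix ligands and 2 of 9 cell surface ligands. Against clone A1, 3 of 45 further adhesome genes rose and 4 fell in the PECAM1+ clones, 4 of 29 matrix ligand genes rose and 1 fell, 0 of 10 surface partners of integrins rose and 2 fell, and 1 of 9 cell surface ligand genes rose and 0 fell. Over all genes, 9.33% were higher and 11.2% lower. Among the marker lists, the leukocyte list had 1 gene lower (Cd68, at 7.96 to 8.16 in the PECAM1+ clones, against 10.07 in clone A1), the fibroblast and mural list 1 higher (Col1a2, by 0.72), the endothelial list, which does not hold Pecam1, 1 higher (Tie1, by 0.26), and the melanocyte and keratinocyte lists none. The clones differed from parental cells by 0.56 for Cd68, 0.03 for Col1a2 and -0.01 for Tie1. Tie1 was at 5.83 to 5.87 in the clones, 5.87 in parental cells and 5.59 in clone A1, all below the array medians. The part of these markers in the results was not tested.

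By size, Edil3, a secreted ligand of alpha-v integrins, stood out in clone A1. It was at 4.98, 5.31, 5.16 and 4.95 in clones A2 to A5, against 8.18 in clone A1 and 5.60 in parental cells, and it fell by 3.07 ± 0.16 (SE) relative to clone A1 (limma adjusted p = 0.00348). Slc3a2, the CD98 heavy chain that binds beta tails and carries amino acid transporters, passed at 0.76 ± 0.05 (SE) below clone A1. It was at 12.02 to 12.11 in the PECAM1+ clones, against 12.83 in clone A1 and 12.09 in parental cells. Matrix ligands Thbs1 and Fn1 were 2.70 and 1.75 higher in the PECAM1+ clones than in clone A1 and did not pass. They were 1.98 and 0.52 higher than in parental cells. The clones themselves ran from 8.64 to 11.76 for Thbs1 and from 9.90 to 11.91 for Fn1.

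In MDEC, 10 of 29 matrix ligand genes were past the rule as higher and 0 as lower, beside 2.72% and 2.01% of all genes. The largest were Tnc (tenascin-C, a ligand of alpha9 and alpha-v integrins) at 11.46 in MDEC, against 4.88 to 5.29 in B16F10, then Ccn3 and the laminin gene Lamb1, 4.40 and 3.82 higher. Of 9 cell surface ligand genes, 3 were higher, with F11r (JAM-A) by 6.15 and Icam2 by 2.82, and 1 was lower, Jam2, with a difference of -3.62. Of 45 further adhesome genes, 2 were higher and 0 lower, Apbb1ip (RIAM, which brings talin to integrins) by 3.31 and Fhl2 by 2.17. Among 10 surface partners, Plaur was 2.47 higher and Sdc4 differed by -2.20.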

How the data were processed

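What the authors deposited is a table of log2 expression, with 1 value for each probe set on each array. Per the labels' protocols, biotin-labelled target from total RNA was hybridised, and per the submitters' processing notes Partek was used. The sources used here do not give its version, the summarisation, the normalization or the genome build, and the log2 scale was read from the values (1.39 to 13.5). Values were used as deposited. Precision is limited by how many arrays there are. Of 35557 probe sets, 21789 carried 1 gene symbol, 1621 several and 12147 none. The probe set with the highest mean stood for a gene, and every member had 1 probe set.

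Samples were grouped by the labels' PECAM status. Limma 3.58.1 in R 4.3.3 (lmFit, eBayes with trend, two-sided, Benjamini-Hochberg over 19938 genes, threshold 0.05) compared the PECAM1+ clones with both PECAM1- samples, clone A1 and parental cells. MDEC had 1 array and a rule of size. The members and lists were chosen with earlier results of these data known. All members are named, and of each other list up to 3 genes with the largest absolute difference in a comparison. Results of 1 further list are not reported here. Endothelial, melanocyte, leukocyte, platelet, fibroblast and keratinocyte markers were set beside them. Promoter windows are from RefSeq (GRCm38.p6). In simulated arrays with 200 planted genes among 19938, the fit against clone A1 found 68% of the genes planted at 2-fold and 87% of those at 4-fold, and called 8 others. The shares were 83% and 98% against both PECAM1- samples, and 62% and 95% against parental cells. Every simulated array, clone A1 included, was given the clones' spread for each gene, and its values were not tied. These shares therefore rest on the assumption that the lone samples vary like the clones, and do not test it. Alternatives were other normalizations, filters, probe set rules and fits, and leaving out each sample.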

Additional observations from a re-analysis of the deposited data

Results flagged for a closer look

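Among the 4 PECAM1+ clones, 4 member genes had a clone whose gap to the others took up more of the range than Dixon's 95% critical value for 4 samples, which chance passes in about 1 group of 20, here over 37 genes. That rate does not hold with tied values, and the other 3 clones had an identical value for Itga8 and Fermt1, as did 2 of them for Itgb2. Clone A2 was low for Itga10 (6.01, the others 6.13 to 6.15) and for Itga8 (5.35, the others 5.64). Clone A5 was high for Itgb2 (5.58, the others 5.43 to 5.44), and clone A4 was low for Fermt1 (3.59, the others 3.63).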

How the results depend on the processing

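Against both PECAM1- samples, 2 genes were called as deposited, 7 with quantile normalization, 6 with median centring, 5 with the filter on the lowest 25% of genes or with robust eBayes, 1 with all probe sets or array weights, and 1 to 4089 with a sample left out, the highest without parental cells. The members called stayed at 0 except without parental cells. Leaving out parental cells gives the same fit as that against clone A1, and leaving out clone A1 the same fit as that against parental cells. Against clone A1, 2108 to 3526 genes and 3 to 6 members were called with a clone left out, the fewest without clone A5 (2108 genes, 3 members), then clone A3 (2208 genes, 4 members). Of the 7 members called with all clones, 3 to 5 were kept then, and Itga10 (without clone A2) and Itgb8 (without clone A4) were gained. The other settings called 6 to 9 members. Against parental cells, 7 genes were called with median centring, 1 with all probe sets, and 0 to 1 with a clone left out, and 0 members under every setting run. With a 2-fold rule, MDEC differed in 2643 genes and 12 members. The 4-fold rule, which took in 943 genes and 5 members, took in 935 to 1058 genes and 5 to 7 members over B16F10 samples left out. Without clone A1, the differences from the PECAM1- group of Itga5, Itgb3, Lims1 and Parva, none of them called, changed sign, Itgb3 to 0.50 and Parva to -0.08. Without parental cells, those of Bcar1, Itga2, Itga8, Itgb4 and Itgb6, also not called, changed sign, Itga8 to -0.12. No called difference changed sign under any setting. No signal over background was known, which limits what can be said of the members with low values, and the cause of these changes was not tested.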
